A study of Mus musculus with 12 samples.

Results

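Myostatin, activin A and their relatives act on muscle through a short chain of ligands, antagonists, receptors and Smad proteins, and 10 genes of that chain were followed here: the ligand genes Mstn, Gdf11 and Inhba, the receptor genes Acvr2a, Acvr2b and Acvr1b, the antagonist genes Fst and Fstl3, and the signal transducer genes Smad2 and Smad3. They were taken by gene symbol, all 10 were on the array with 1 transcript each, and they are 10 of the 19476 named genes that were tested. Mice of a Balb/c-DBAj hybrid strain, 10 to 11 weeks old, had received C26 colon carcinoma cells under the skin of the flank, a model of cachexia, in which mice with a growing tumour lose muscle and fat. Non-tumour-bearing (NTB) mice of the same strain and age had received the culture medium alone. Whole gastrocnemius, a limb muscle of mostly fast fibres, and whole heart were taken from separate cohorts, so that muscle and cohort cannot be told apart where the muscles are compared. Each of the 4 groups (C26 gastrocnemius, NTB gastrocnemius, C26 heart, NTB heart) held 3 arrays, 12 in all, and the values are log2 expression values made by the authors with RMA, an array summary that corrects background and normalizes between arrays. The labels call the replicates biological and do not say whether each was 1 animal.

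Myostatin is made by muscle fibres and holds muscle growth back, and mice, cattle and dogs without it are heavily muscled. GDF11 is its closest relative, and activin A is a dimer of the subunit encoded by Inhba. These ligands bind the type II receptors encoded by Acvr2a and Acvr2b, which recruit a type I receptor such as the product of Acvr1b (ALK4), and the type I receptor then phosphorylates SMAD2 and SMAD3. Follistatin (Fst) and follistatin-like 3 (Fstl3) wrap the ligands outside the cell and keep them from the receptors. A soluble decoy form of a type II receptor, which binds the ligands, has been used in C26 mice to hold back wasting.

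The promoters of the 3 ligand genes are printed because the tumour changes that passed the test described below were those of Gdf11 and Inhba. Mstn, which passed it in neither muscle, is printed as the remaining ligand gene. RefSeq promoter windows of 300 bases, 250 before the annotated start and 50 after it, were at hand for 8 of the 10 genes and not for Fst and Smad2. The sequences below are from RefSeq, build GRCm38.p6, read 5′ to 3′ on the strand of the gene. Capitals mark matches, on either strand, to CAGAC (a Smad box), CANNTG (an E-box, the motif of myogenic factors), GTAAACA (a FoxO element) and, for a TATA box, the letters TATAAA, and no match overlapped another in these 3 windows. Mstn lies on chr1:53061390-53061689, plus strand, Gdf11 on chr10:128891669-128891968, minus strand, and Inhba on chr13:16011601-16011900, plus strand. The Inhba window lies inside the annotated gene, chr13:16004256-16031609, so it is at another start than the first one.
Mstn: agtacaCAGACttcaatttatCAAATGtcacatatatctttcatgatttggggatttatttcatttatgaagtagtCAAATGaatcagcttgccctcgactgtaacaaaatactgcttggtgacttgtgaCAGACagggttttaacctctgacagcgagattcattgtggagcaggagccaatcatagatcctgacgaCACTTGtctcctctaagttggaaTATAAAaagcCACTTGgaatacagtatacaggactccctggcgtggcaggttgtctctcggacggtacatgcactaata
Gdf11: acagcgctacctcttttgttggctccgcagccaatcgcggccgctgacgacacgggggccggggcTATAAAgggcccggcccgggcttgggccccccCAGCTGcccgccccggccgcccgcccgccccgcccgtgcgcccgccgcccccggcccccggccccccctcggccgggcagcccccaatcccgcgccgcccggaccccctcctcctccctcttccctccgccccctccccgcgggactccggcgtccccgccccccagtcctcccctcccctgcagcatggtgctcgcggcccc
Inhba: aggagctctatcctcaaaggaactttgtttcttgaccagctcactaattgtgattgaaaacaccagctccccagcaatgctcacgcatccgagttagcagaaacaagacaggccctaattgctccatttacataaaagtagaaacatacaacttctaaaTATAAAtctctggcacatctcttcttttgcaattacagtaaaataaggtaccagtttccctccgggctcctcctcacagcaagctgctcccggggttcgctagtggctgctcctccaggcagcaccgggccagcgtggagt
The Mstn window held 2 Smad boxes, 4 E-boxes and a TATA box that begins at base 222 of the window. In the Gdf11 window there was 1 E-box and a TATA box from base 66, and in that of Inhba a TATA box from base 160 and neither of the other motifs. The FoxO element was in none of the 3 windows. Of the 27025 promoter windows of this length in the table, 49.7% held a Smad box, 72.1% an E-box, 3.5% the FoxO element and 14.2% the TATA box, so that Smad boxes and E-boxes are common at this length. The Gdf11 window was 80.7% G and C with 36 CpG pairs, against 41.3% with 6 in Mstn and 47.7% with 7 in Inhba, and the median window in the table had 7 CpG pairs. A match describes letters and is not a measured binding site.

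The arrays of a group resembled each other, with mean correlations between 0.972 and 0.994 over the 19476 genes, and medians over all transcripts of an array lay between 5.93 and 6.09. C26 gastrocnemius array 3 stood somewhat apart, with the lowest of these correlations and the narrowest spread of values (SD 1.97 against 2.03 to 2.10 on the other arrays), and 7 of the 10 genes were lowest on it within its group, as 7 were on array 3 of each NTB group. The muscles carried their own markers. The 6 skeletal fibre markers averaged 13.06 to 13.53 on the gastrocnemius arrays and 7.92 to 8.25 on the heart arrays, and the 6 cardiomyocyte markers 5.95 to 6.23 and 11.88 to 12.40. As the files give no detection call, the 1136 olfactory receptor transcripts, most of which were assumed to be silent in muscle, served as a reference for dim signal. Their 95th percentile was 5.80, and a group whose mean lay under it is described as not above that reference.

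**Figure D1:**
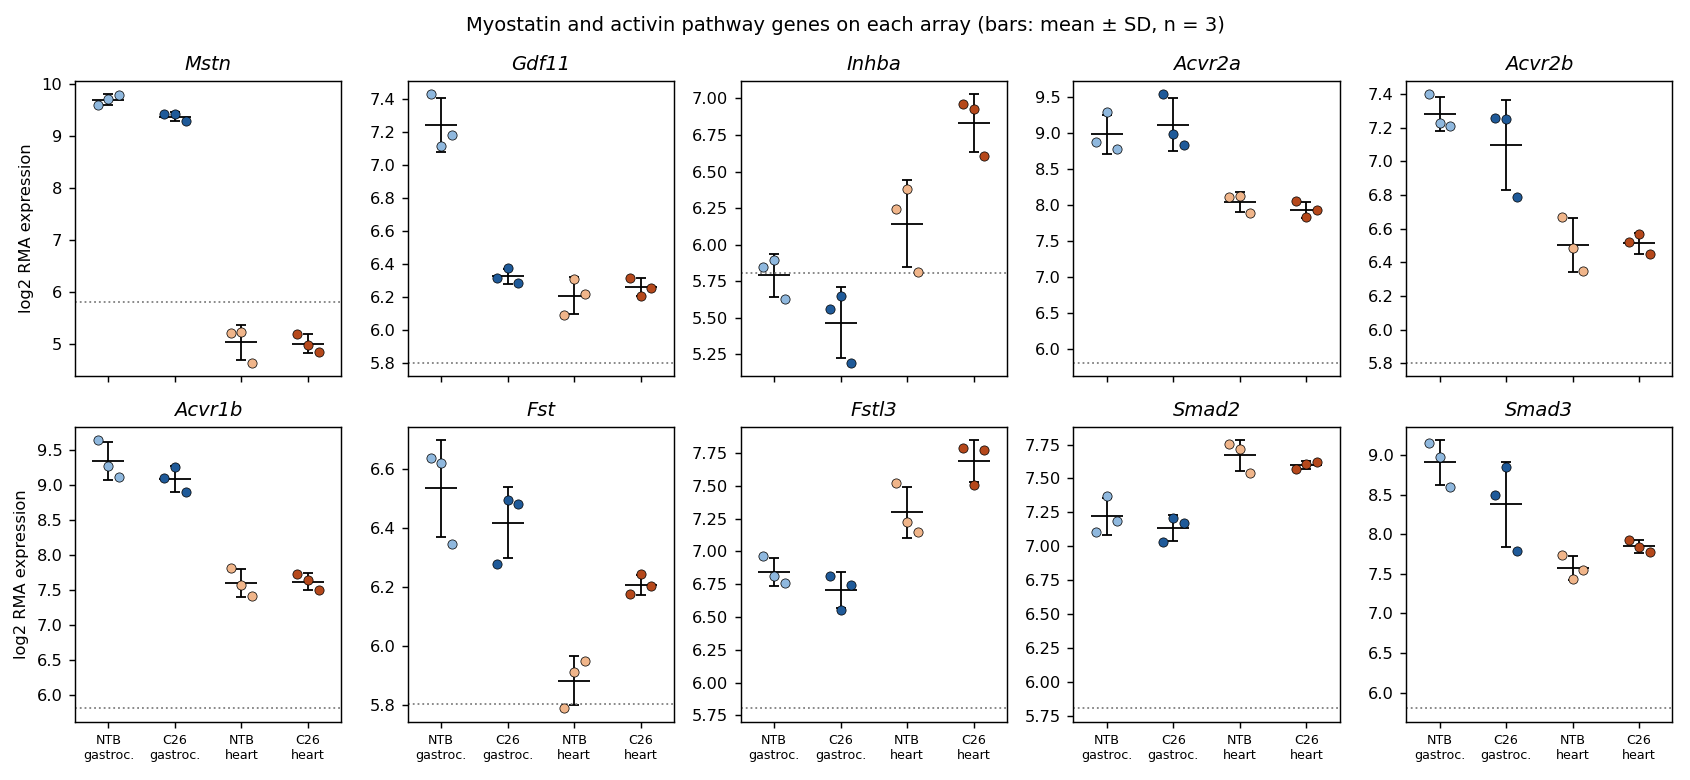
Log2 RMA expression of the 10 genes on each of the 12 arrays (points), with group mean and SD (bars, n = 3 arrays) and the dim-signal reference at 5.80 (dotted line); each panel has its own y axis, which does not start at 0. Gdf11 on the C26 gastrocnemius arrays lies apart from NTB gastrocnemius and beside the hearts, and Inhba is higher on the C26 heart arrays than on the NTB heart arrays.

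Among the ligands, Gdf11 fell in the gastrocnemius of tumour-bearing mice. NTB gastrocnemius arrays 1 to 3 read 7.43, 7.11 and 7.18, and C26 gastrocnemius arrays 1 to 3 read 6.32, 6.38 and 6.29. The groups did not overlap, and the gap between them was several times the spread within either (SD 0.16 and 0.05, n = 3). Gdf11 was thus 1.88-fold lower (log2 change -0.91 ± 0.12, SE of the fit, limma adjusted p = 1.08e-04). This was the 1 gene of the 10 called in gastrocnemius, where called means an adjusted p under 0.05 and 11.8% of all genes tested were called. Whole muscle was measured, so less RNA per cell and fewer cells of a type that carries the RNA cannot be told apart, here or below. The fall was as large without C26 gastrocnemius array 3 (-0.89), and it was called in all 21 alternative settings run (adjusted p up to 0.009).

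Gdf11 was not called in heart. The C26 hearts read 6.32, 6.21 and 6.25 and the NTB hearts 6.10, 6.31 and 6.22, so that the groups overlapped. The change was 0.05 ± 0.12 (limma adjusted p = 0.952), with a 95% interval from -0.20 to 0.30. The difference of the changes, gastrocnemius minus heart, was itself called (-0.96 ± 0.17, adjusted p = 0.00395), against 3.95% of all genes, 1.96% called higher and 1.99% lower. In NTB mice Gdf11 was lower in heart than in gastrocnemius by a log2 difference of 1.03, and on the C26 gastrocnemius arrays its values of 6.29 to 6.38 lay beside and partly within those of the hearts (6.10 to 6.32).

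Mstn, the myostatin gene itself, was bright in gastrocnemius and somewhat lower in tumour-bearing mice, without passing the test. The NTB gastrocnemius arrays read 9.59, 9.70 and 9.79 and the C26 gastrocnemius arrays 9.41, 9.42 and 9.28. Every C26 array lay under every NTB array, as was the case, in either direction, for 19.3% of all genes in this muscle. The change was -0.32 ± 0.16 (limma adjusted p = 0.254, unadjusted p = 0.0572), with a 95% interval from -0.66 to 0.01, and it was called in none of the 21 alternative settings (adjusted p 0.102 to 0.461). The fit pools the spread of all 4 groups, and the spread of Mstn was wider on the heart arrays (SD 0.34 and 0.18) than on the gastrocnemius arrays (0.10 and 0.08). With the gastrocnemius arrays fitted alone, a fit that called 4.64% of all genes, the adjusted p was 0.343.

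In heart Mstn was not above the dim-signal reference. NTB hearts read 5.21, 5.23 and 4.63 and C26 hearts 5.19, 4.98 and 4.84, all under 5.80. No change between these groups can be read at that level (-0.02 ± 0.16, adjusted p = 0.989).

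Inhba, which encodes the subunit of activin A, rose in the hearts of tumour-bearing mice. The C26 hearts read 6.96, 6.93 and 6.60 and the NTB hearts 6.24, 6.38 and 5.81. All 3 C26 hearts lay above all 3 NTB hearts, a separation that 27.5% of all genes showed in heart in either direction. The level was 1.61-fold higher (log2 change 0.69 ± 0.17, limma adjusted p = 0.0373, 95% interval 0.33 to 1.05). It was the 1 gene of the 10 called in heart, against 3.21% of all genes. The call was not firm. It was lost with quantile normalization (adjusted p = 0.0646), with all transcripts tested (0.122), and without C26 heart array 1 (0.179) or 2 (0.153), NTB heart array 1 (0.0846) or 3 (0.200) or NTB gastrocnemius array 1 (0.0518). The value ranged from 0.52 to 0.80 when 1 array was left out, and the adjusted p was 0.00861 with the heart arrays fitted alone.

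Gastrocnemius carried little Inhba signal. The NTB arrays read 5.85, 5.90 and 5.63 and the C26 arrays 5.56, 5.65 and 5.19, so that the groups overlapped and both means, 5.79 and 5.47, were not above the reference of 5.80. The change was -0.32 ± 0.17 (limma adjusted p = 0.307). The difference of the changes was called (-1.01 ± 0.24, adjusted p = 0.0262), with 1 of its sides resting on values at the level of the reference. That call was lost with all transcripts tested (adjusted p = 0.0885) and without C26 heart array 1 or 2, NTB heart array 1 or 3, or NTB gastrocnemius array 1 or 2 (0.0513 to 0.0813).

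The receptor genes were not called in either muscle. Acvr1b, which encodes the type I receptor ALK4, read 9.64, 9.27 and 9.11 on the NTB gastrocnemius arrays and 9.10, 9.26 and 8.90 on the C26 gastrocnemius arrays. These ranges overlapped, and the change was -0.25 ± 0.16 (limma adjusted p = 0.416), with a 95% interval from -0.59 to 0.08. Acvr2b, a type II receptor that binds myostatin, read 7.40, 7.23 and 7.21 in NTB gastrocnemius and 7.26, 7.25 and 6.79 in C26 gastrocnemius. Its change of -0.18 ± 0.14 (adjusted p = 0.568) shrank to -0.03 without C26 gastrocnemius array 3, the array that stood apart. Acvr2a, the other type II receptor, read 8.87, 9.28 and 8.77 in NTB gastrocnemius and 9.53, 8.98 and 8.82 in C26 gastrocnemius, the only positive change of the 10 genes in this muscle (0.13 ± 0.18, adjusted p = 0.799), and it turned to -0.08 without C26 gastrocnemius array 1. In heart the groups of each receptor gene overlapped. Acvr1b read 7.81, 7.57 and 7.41 in NTB hearts and 7.72, 7.64 and 7.49 in C26 hearts, Acvr2b 6.35 to 6.67 and 6.45 to 6.57, and Acvr2a 7.88 to 8.12 and 7.82 to 8.04. The changes were 0.02, 0.01 and -0.11, and their 95% intervals together ran from -0.48 to 0.35.

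Both antagonist genes were higher on the C26 heart arrays without passing the test. Fst read 5.79, 5.91 and 5.95 in NTB hearts, close to the dim-signal reference of 5.80, and 6.18, 6.24 and 6.20 in C26 hearts. The groups did not overlap, and the change was 0.32 ± 0.12 (limma adjusted p = 0.233, unadjusted p = 0.0170). Fstl3, whose product binds activins and myostatin in blood and tissue, read 7.52, 7.23 and 7.15 in NTB hearts and 7.79, 7.51 and 7.78 in C26 hearts. C26 heart array 2 lay just under NTB heart array 1, and the change was 0.39 ± 0.14 (adjusted p = 0.182, unadjusted p = 0.0115). With the heart arrays fitted alone Fstl3 was called (adjusted p = 0.0449), in a fit that called 11.3% of all genes. In gastrocnemius both overlapped between the groups. There Fst read 6.64, 6.62 and 6.35 in NTB mice and 6.28, 6.50 and 6.48 in C26 mice (-0.12 ± 0.12, adjusted p = 0.710), and Fstl3 6.97, 6.81 and 6.76 and 6.82, 6.55 and 6.74 (-0.14 ± 0.14, adjusted p = 0.676). The difference of the changes between muscles was not called for Fst (-0.44 ± 0.17, adjusted p = 0.213) or Fstl3 (-0.53 ± 0.19, adjusted p = 0.171).

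Of the receptor-activated Smad genes, Smad3 had a negative change in C26 gastrocnemius that was not called in the fit as reported and was called under some alternative settings. NTB gastrocnemius arrays 1 to 3 read 9.15, 8.97 and 8.60, and C26 gastrocnemius arrays 1 to 3 read 8.49, 8.85 and 7.79. The groups overlapped, since C26 array 2 lay above NTB array 3, and the C26 group was widely spread (SD 0.54). The change was -0.53 ± 0.21 (limma adjusted p = 0.144). Arrays with the same number deviated together in this muscle, and within each number the C26 array was the lower one, by log2 differences of -0.66, -0.13 and -0.81. With the number as a block Smad3 was called (-0.53 ± 0.13, adjusted p = 0.0128), and so was the difference of its changes between the muscles (-0.80 ± 0.19, adjusted p = 0.0192, against 0.198 without the block). That fit called 3168 genes in gastrocnemius and 1372 in the difference. It blocked the heart arrays by number too, although these did not deviate together, and the labels state no pairing in either muscle. Smad3 in gastrocnemius was also called with quantile normalization (adjusted p = 0.0360) and without C26 gastrocnemius array 2 (-0.77, adjusted p = 0.0280). Without C26 gastrocnemius array 3 the change was -0.24 (adjusted p = 0.361).

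In heart Smad3 read 7.74, 7.44 and 7.55 on the NTB arrays and 7.93, 7.84 and 7.77 on the C26 arrays. The groups did not overlap, and the change of 0.27 ± 0.21 was not called (limma adjusted p = 0.754). The fit pools the spread of all 4 groups. That of Smad3 was narrower on the heart arrays (SD 0.15 and 0.08) than on the gastrocnemius arrays (0.28 and 0.54). With the heart arrays fitted alone, a fit that called 11.3% of all genes, Smad3 was not called either (0.27 ± 0.10, adjusted p = 0.0988). Smad2, which carries the same signal, was called in neither muscle. Its gastrocnemius arrays read 7.10, 7.37 and 7.19 in NTB mice and 7.03, 7.20 and 7.17 in C26 mice (-0.08 ± 0.12, adjusted p = 0.810), and its heart arrays 7.75, 7.72 and 7.54 and 7.57, 7.61 and 7.62 (-0.07 ± 0.12, adjusted p = 0.925). Both pairs of ranges overlapped, and the 95% intervals ran from -0.33 to 0.16 and from -0.32 to 0.18.

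Over the 10 genes together, 1 fell and 0 rose in C26 gastrocnemius, and 1 rose and 0 fell in C26 heart. At an unadjusted p under 0.05 there were 2 in gastrocnemius and 3 in heart, against 21.5% and 12.1% of all genes, and 5 in the difference of the changes, against 14.5%. C26 and NTB arrays did not overlap for 2 of the 10 genes in gastrocnemius and 3 in heart, near the 19.3% and 27.5% among all genes. The change was positive for 1 of the 10 in gastrocnemius and 7 in heart, while 49.4% and 52.1% of all genes had a positive change. The median change was -0.22 in gastrocnemius and 0.04 in heart, beside medians of -0.00 and 0.01 over all genes. As a share of 10, these calls lie near the share among all genes in gastrocnemius and rest on 1 gene in heart.

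**Figure D2:**
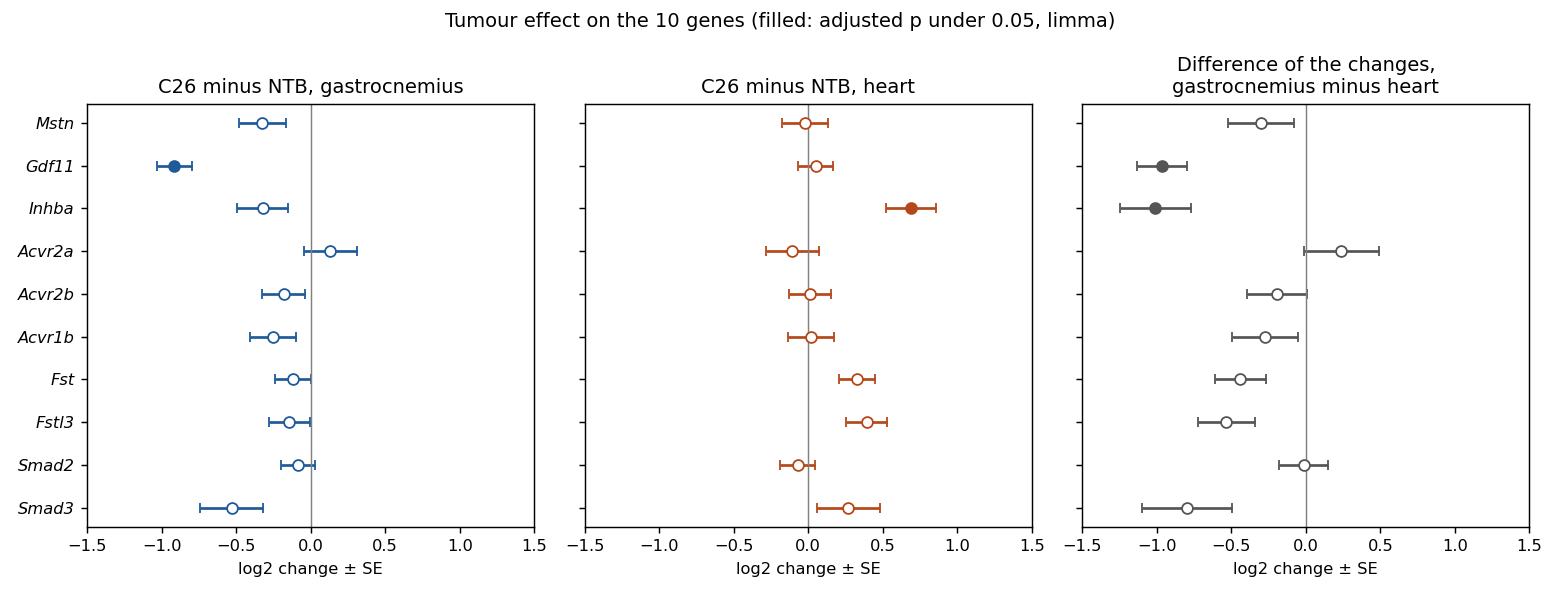
Log2 change of each of the 10 genes (C26 minus NTB, n = 3 arrays per group) with the SE of the fit, for gastrocnemius, heart and the difference of the changes; filled points have a limma adjusted p under 0.05. Gdf11 is filled in gastrocnemius at -0.91, Inhba in heart at 0.69, and both in the difference.

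**Figure D3:**
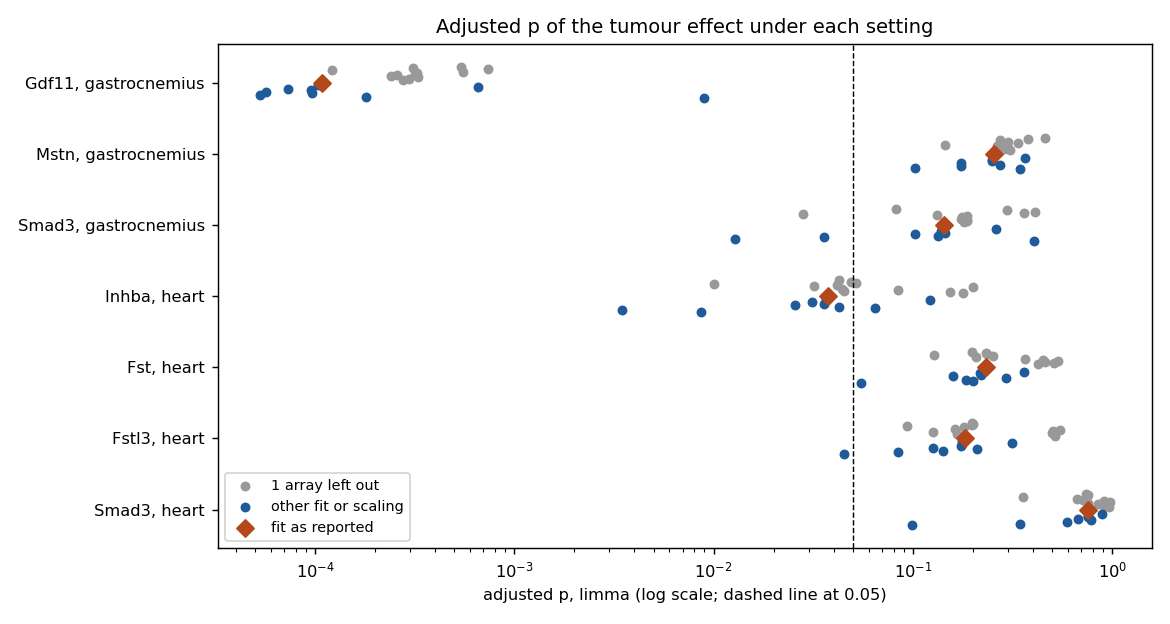
Limma adjusted p (log axis) of the tumour effect for selected genes in the fit as reported (diamonds), with 1 array left out (grey) and under another fit or scaling (blue), with a dashed line at 0.05. Every Gdf11 point lies left of the line and every Mstn point right of it, while those of Inhba in heart and Smad3 in gastrocnemius lie on both sides.

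Between the muscles of NTB mice most genes of the chain differed. Of the 10 genes 7 were called lower and 2 higher in NTB heart than in NTB gastrocnemius, in a comparison that called 40.5% of all genes, 24.7% of all genes being higher and 15.8% lower. Mstn was at least 14.8-fold lower in heart, with the heart values set to the dim-signal reference (measured log2 difference -4.67 ± 0.16, limma adjusted p = 4.38e-12). All 3 receptor genes were lower in heart, Acvr1b by -1.74 ± 0.16 (adjusted p = 3.00e-07), Acvr2a by -0.94 ± 0.18 (4.67e-04) and Acvr2b by -0.78 ± 0.14 (3.74e-04). Smad3 was lower by -1.33 ± 0.21 (adjusted p = 1.16e-04), Gdf11 by -1.03 ± 0.12 (4.33e-06) and Fst by -0.65 ± 0.12 (4.20e-04). The antagonist Fstl3 and the transducer Smad2 were higher in heart, by 0.45 ± 0.14 (adjusted p = 0.0147) and 0.45 ± 0.12 (0.00559). Fstl3 was not called without NTB heart array 1 (adjusted p = 0.0865) or NTB gastrocnemius array 3 (0.0531). Inhba, at 0.35 ± 0.17 (adjusted p = 0.114), was not called, and was called without NTB heart array 3 (0.52, adjusted p = 0.0287). Except for Inhba the NTB groups of each gene lay apart without overlap, as did those of 53.0% of all genes.

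Other genes of the pathway, 41 in number and chosen with earlier results of these data known, were measured as well. In gastrocnemius 6 rose and 4 fell, beside 6.42% and 5.42% of all genes, and their median change was -0.03. In heart 3 rose and 0 fell, beside 2.13% and 1.08%, with a median of 0.14. The difference of the changes was called higher for 1 of the 41 (Tgif1) and lower for 4 (Bmp1, Fstl1, Smad6 and Ccn2), beside 1.96% and 1.99% of all genes. Among 4 further receptor genes the TGF-beta receptors Tgfbr1 (0.60 ± 0.13, limma adjusted p = 0.00528) and Tgfbr2 (0.69 ± 0.14, adjusted p = 0.00332) rose in gastrocnemius and Acvr1 (-0.49 ± 0.12, adjusted p = 0.0129), a type I receptor of activins and BMPs, fell. Tgfbr2 also rose in heart, 2.22-fold (1.15 ± 0.14, adjusted p = 1.78e-04). Its values there were 8.33 on average in NTB hearts and 9.48 in C26 hearts. Tgfbr1 (0.32, adjusted p = 0.297) and Acvr1 (0.07, adjusted p = 0.930) were not called in heart.

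Of 6 further ligand and inhibin subunit genes, Inhbb, which encodes the subunit of activin B, rose in gastrocnemius (0.53 ± 0.16, limma adjusted p = 0.0470) from a mean of 5.63, under the reference of 5.80, to 6.16. That call was lost in 11 of 21 alternative settings, among them those that left out 1 of C26 gastrocnemius arrays 1 and 2, any 1 of the 3 NTB gastrocnemius arrays, C26 heart array 1, or NTB heart array 1 or 2. In heart Inhbb was not called (0.40 ± 0.16, limma adjusted p = 0.305), nor was the difference of its changes between the muscles (0.13, adjusted p = 0.886). Inha, which encodes the inhibin alpha subunit, and Gdf3 were not called (-0.17 and -0.10 in gastrocnemius, -0.05 and 0.08 in heart). Inhbc, Inhbe and Nodal were not above the reference in any group. Of 7 genes that process or hold the ligand precursors, the protease gene Furin rose in heart (0.54 ± 0.13, adjusted p = 0.0293), a call lost when 1 heart array, whichever of the 6, was left out (adjusted p up to 0.170). In gastrocnemius no gene of this list was called, and the smallest adjusted p were those of the protease Pcsk6 (-0.35, adjusted p = 0.0746), Furin (0.36, adjusted p = 0.0843) and the latency protein gene Ltbp3 (-0.30, adjusted p = 0.154). Tll2, a tolloid relative, was not called in heart (-0.36, adjusted p = 0.0856). Bmp1, a tolloid protease that frees myostatin from its propeptide, was not called in heart (0.51 ± 0.13, adjusted p = 0.0517) or in gastrocnemius (-0.29 ± 0.13), but the difference of its changes was (-0.79, adjusted p = 0.0261), and 7 of 20 settings lost that call, those without NTB heart array 2 or 3, any C26 heart array or NTB gastrocnemius array 2 among them (adjusted p 0.0542 to 0.0880).

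Among 7 further antagonists and co-receptors, Tgfbr3 (betaglycan, which helps inhibin to oppose activin) rose in gastrocnemius (0.62 ± 0.13, limma adjusted p = 0.0039) and Fstl1, a follistatin relative, fell (-0.77 ± 0.18, adjusted p = 0.0103), the latter not without NTB gastrocnemius array 2 (adjusted p = 0.0544). The change of Fstl1 differed between the muscles (-1.28, adjusted p = 0.00968), with 0.51 ± 0.18 in heart (not called, adjusted p = 0.195). Dcn (decorin, a matrix proteoglycan that binds myostatin) was not called (-0.22 in gastrocnemius, adjusted p = 0.339, and 0.39 in heart, adjusted p = 0.137), nor was Tgfbr3 in heart (0.36, adjusted p = 0.186). The propeptide-binding genes Wfikkn1 and Wfikkn2, whose products hold myostatin and GDF11, were not called in either muscle (adjusted p 0.634 or more). Of 12 further Smad and Smad regulator genes Tgif1, a co-repressor of SMAD2 and SMAD3, rose in gastrocnemius 2.31-fold (1.21 ± 0.15, adjusted p = 7.79e-05) and was not called in heart (0.21, adjusted p = 0.708). The difference was called (1.00, adjusted p = 0.0149), though not without NTB heart array 2 (0.0552). The inhibitory Smad6 fell (-0.42 ± 0.12, adjusted p = 0.0398) in a call that 12 of 21 settings lost, among them those without 1 heart array, whichever of the 6, and those that left out array 2 or 3 of C26 gastrocnemius or array 1 or 3 of NTB gastrocnemius. Its difference between the muscles (-0.70, adjusted p = 0.0358) was lost in 10 of 20 settings. The phosphatase gene Ppm1a in gastrocnemius (-0.31, adjusted p = 0.128) and, in heart, Smad6 (0.28, adjusted p = 0.358), the co-repressor Ski (0.26, adjusted p = 0.488) and the ubiquitin ligase Smurf1 (-0.26, adjusted p = 0.565) were not called. Smad4 and the inhibitory Smad7 were not called in either muscle (changes from -0.09 to 0.13).

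Of 7 genes known to be induced through SMAD2 and SMAD3, 1 rose and 1 fell in gastrocnemius and 1 rose in heart. The cell cycle inhibitor Cdkn1a rose in both muscles, by 2.17 ± 0.19 in gastrocnemius (limma adjusted p = 2.71e-06) and 2.90 ± 0.19 in heart (6.73e-07). It answers to several other pathways, p53 among them. Ccn2 fell in gastrocnemius (-0.71 ± 0.16, adjusted p = 0.00905) and stood at 0.57 ± 0.16 in heart (adjusted p = 0.0805), and these changes differed (-1.29, adjusted p = 0.00498). Pmepa1, Ltbp2, Smad7 and Skil were called in neither muscle, and their changes lay between -0.11 and 0.20. The median over the 7 genes was 0.02 in gastrocnemius and 0.14 in heart. With the gastrocnemius arrays fitted alone Inhbb, Tgfbr3, Fstl1, Acvr1, Tgfbr1, Tgfbr2, Smad6 and Ccn2 were not called in gastrocnemius (adjusted p 0.0616 to 0.210), while Tgif1 and Cdkn1a were.

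**Figure D4:**
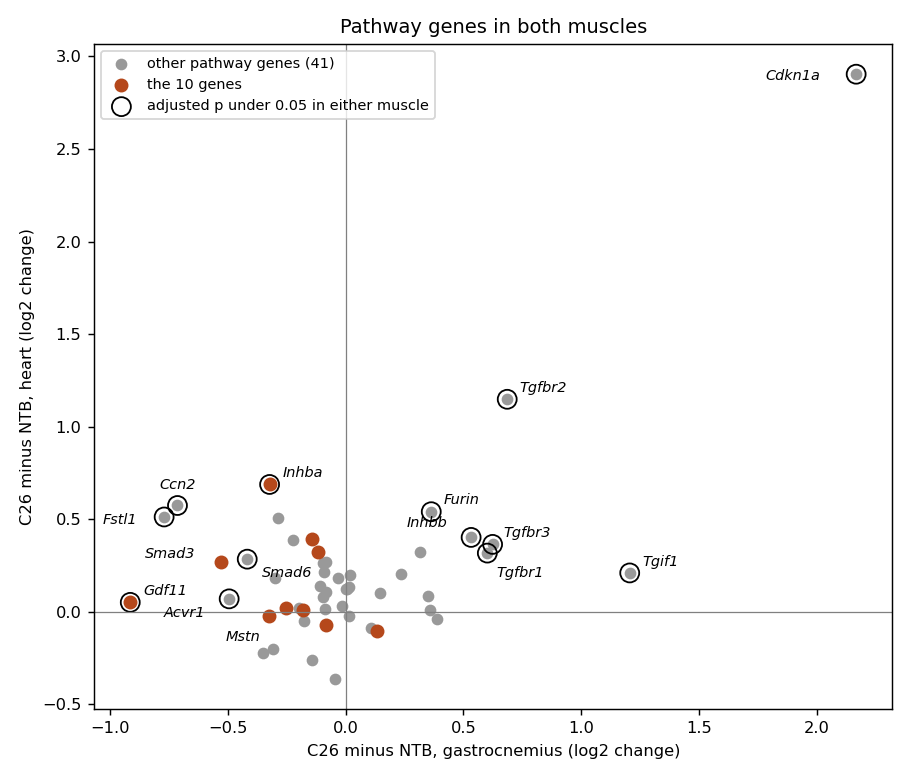
Log2 change (C26 minus NTB) in gastrocnemius on the x axis and heart on the y axis for the 10 genes (orange) and the 41 other pathway genes (grey), with a ring around each gene that has a limma adjusted p under 0.05 in either muscle; Mstn and Smad3, which have none, are named too. Cdkn1a and Tgfbr2 are ringed at the upper right, and Fstl1 and Ccn2 at the upper left.

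Markers of other cell types moved in the same comparisons. In heart the 4 macrophage markers averaged 7.37 to 7.63 on the NTB arrays and 8.28 to 8.31 on the C26 arrays, with Cd68 (0.98 ± 0.15, limma adjusted p = 0.00141) and C1qa (1.16 ± 0.26, adjusted p = 0.0231) called higher. The 4 fibroblast markers averaged 9.45 to 9.50 and 9.81 to 10.09 in heart with 0 called, and their part and that of the macrophage markers in the rise of Inhba was not tested. In gastrocnemius the fibroblast markers averaged 9.54 to 10.14 on the NTB arrays and 8.59 to 9.10 on the C26 arrays, with Col1a1 (-2.54) and Lum (-1.02) called lower and Dcn (-0.22) and Pdgfra (0.16) not called, beside the falls of Gdf11, Fstl1 and Ccn2, and their part in these was not tested. Of the 6 skeletal fibre markers, Mylpf was called lower in gastrocnemius (limma adjusted p = 0.00284), and their average was 13.48 to 13.53 on the NTB and 13.06 to 13.38 on the C26 arrays. The macrophage markers there averaged 6.35 to 6.98 and 6.44 to 7.12, with 1 called higher, and the 4 fat cell markers 6.22 to 6.69 and 6.25 to 7.58, with 0 called. The highest fat cell average was on C26 gastrocnemius array 3, the array that stood apart. Cfd read 10.22 on it, against 7.93 and 8.57 on arrays 1 and 2 of its group. The 4 endothelial markers averaged 8.23 to 8.48 and 8.24 to 8.48, with Pecam1 (0.55, limma adjusted p = 0.00363) called higher and Kdr (-0.41, adjusted p = 0.0637) not called. In heart 0 endothelial and 0 cardiomyocyte markers were called, and Ckm (-0.43, adjusted p = 0.0211) and Acta1 (-0.54, adjusted p = 0.00835), muscle genes from the skeletal fibre list, were called lower beside the rise of Inhba. The part of these markers in the results was not tested. Satellite cell markers did not differ by any call in gastrocnemius (Pax7 0.04, Myf5 0.08, Cdh15 0.52). Of the 4 epithelial markers that would mark cells of a carcinoma, Epcam, Krt18 and Cdh1 were not above the reference in any group and Krt8 was not called.

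Genes whose pattern was most like that of a ligand were found by correlation over the 12 arrays, after the mean of each muscle had been subtracted, among 12318 genes of sufficient signal. For Gdf11 these were Ssbp2 (r = 0.976), Ostn (0.971), which encodes the muscle peptide osteocrin, and Polr3k (0.971). The tumour effect stayed in these values, so the choice itself favours genes that share the fall of Gdf11. Their log2 changes in gastrocnemius were -0.83, -4.07 and -0.80, and they were not called in heart. Ostn went from a mean of 10.09 in NTB to 6.02 in C26 gastrocnemius. For Mstn they were Ube2e1 (r = 0.856), Slc18b1 (0.851) and Gcsh (0.849), with changes of -0.46, -0.29 and -0.50 in gastrocnemius. On the 6 heart arrays Mstn lay under the dim-signal reference and spread more widely than in gastrocnemius, so this order rests in large part on dim values. These correlations describe 12 arrays that share their groups.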

How the data were processed

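The deposited values are log2 expression values made by the authors with RMA on Affymetrix mouse arrays. The submitters' processing notes name RMA, GCOS, Partek and the build mm8 and give no version or role for them, and a joint normalization of the 12 arrays is not given in the sources used here. The log2 scale was inferred from the range of the deposited values. Gene symbols came from a column of a second deposited table, where they stop after 7 characters; 12 further columns there, which hold values by sample under names that no sample carries, were left unused. Symbols of 7 characters were completed where exactly 1 gene in RefSeq (GRCm38.p6) began with these characters and had the accession start given, older symbols included, which named 5227 of 7122. Of 35556 transcripts 21924 were named, for 19476 genes, with the brightest transcript on average standing for a gene that had several.

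Group means were fitted in R 4.3.3 with limma 3.58.1 to all 12 arrays at once, with variances moderated along their trend with expression (8 residual degrees of freedom, to which the prior added 6.84 at the median), tested two-sided and with Benjamini-Hochberg adjustment across the 19476 genes. No filter on dim transcripts was used. The code was tested on simulated data. The number of arrays limits the precision. Scan or extraction batches were not given in the sources used here and were not tested.

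Equal replicate numbers were checked through the correlation of deviations from the group means over all genes. In gastrocnemius it was 0.311, 0.331 and 0.498 for numbers 1 to 3, and between unlike numbers it ran from -0.445 to 0.134. In heart it was 0.092, -0.041 and 0.016 for numbers 1 to 3. Deviations of 3 arrays from their own mean depend on each other, so these correlations cannot establish a pairing. The labels do not state one. The block is therefore given only as an alternative, beside gastrocnemius results whose call it changes.

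The 10 genes and all lists were chosen with earlier results of these data known. All 10 are named, and of each pathway list up to 3 genes with the smallest adjusted p in each tumour comparison. Other genes named from these lists, among them Wfikkn1, Wfikkn2, Inhbc, Smad4 and Smad7, were chosen after their values were seen. The values of 1 gene of these lists are not reported here, though it is among the genes counted. Genes most like Mstn and Gdf11 are the 3 with the highest Pearson correlation among genes whose mean is above the 95th percentile of olfactory receptor transcripts. Promoter sequences are from RefSeq. Alternatives were the muscles fitted alone, the block, quantile normalization, median centring, a filter on dim genes, eBayes without trend or robust, all transcripts tested, the mean of a gene's transcripts, and each array left out.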

Additional observations from a re-analysis of the deposited data

Results flagged for a closer look

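The changes of Gdf11 and Inhba differed between the muscles by the test of the difference itself, C26 minus NTB in gastrocnemius less the same in heart, fitted with limma over 3 arrays a group. For Gdf11 the difference was -0.96 (adjusted p = 0.00395), with all 3 C26 gastrocnemius arrays under all 3 NTB arrays and overlapping hearts. For Inhba it was -1.01 (adjusted p = 0.0262), with all 3 C26 hearts above all 3 NTB hearts and gastrocnemius values at the level of the dim-signal reference. The muscles stem from separate cohorts, so that cohort and muscle cannot be told apart. Groups of 3 arrays are too small for a test of single outlying arrays.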

How the results depend on the processing

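Of 810 values of the 10 genes recomputed under the alternatives, 773 kept their direction and their side of the threshold, 16 lost a call, 6 gained one and 15, none of them called, changed sign. Fits of each muscle alone called 903 genes for gastrocnemius and 2206 for heart, 2 of the 10 among the latter. With the replicate number as a block 1007 genes were called in heart and 1372 in the difference, and 2 of the 10 in gastrocnemius; beyond Smad3 it changed no call of the 10 genes. Quantile normalization called 2 of the 10 in gastrocnemius and 0 in heart, and all transcripts tested gave 0 in heart and 1 in the difference. Leaving out 1 array gave 328 to 1143 genes in heart and 458 to 1601 in the difference, the highest without C26 gastrocnemius array 3 and the lowest without NTB heart array 2, and 1 to 2 of the 10 genes in gastrocnemius, 0 to 1 in heart and 1 to 2 in the difference. Median centring turned Acvr2b (-0.0296) and Acvr1b (-0.021) in heart and Smad2 in the difference (0.0421). Leaving out 1 array turned Mstn (-0.218 to 0.0815), Gdf11 (-0.0072 to 0.102), Acvr2b (-0.0643 to 0.0939) and Acvr1b (-0.0724 to 0.127) in heart, Acvr2a (-0.0775 to 0.285) in gastrocnemius and Smad2 in the difference (-0.0718 to 0.0608). The causes were not tested. Fits of a muscle alone give no difference between muscles, and the block none between NTB hearts and NTB gastrocnemius. Quantile normalization and median centring moved the median change over all genes by less than 0.1. Mstn in heart and Inhba in gastrocnemius are limited by dim signal, and Fst and Inhba in NTB heart lie near that level.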
